A study of Mus musculus with 2 samples.

Results

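The immediate early genes Fos, Fosb, Jun, Junb, Egr1, Atf3, Ier2 and Dusp1 and the heat shock genes Hspa1a and Hspa1b were described as readouts of acute cell stress, including the stress of tissue dissociation. They were taken by symbol and not by any measured value, and they are 10 of the 32285 genes in the count matrices. Single cells were measured in omental tumors of C57BL/6J female mice (12 to 16 weeks old by the study's methods), 10 days after intraperitoneal grafting of a KPCA derivative. KPCA is a mouse ovarian cancer line made from fallopian tube epithelial cells, with Ccne1 and Akt2 overexpressed among its engineered changes. KPCA.FSTKO cells lack a functional Fst gene, and KPCA.FSTKO_hFSTL3 is a stable clone of them that carries a plasmid for human FSTL3, so that both groups share the Fst deletion and the second is 1 clone. Each group gave 1 library from 4 pooled tumors. With 1 library per genotype no difference between genotypes could be tested. The 95% intervals given are exact for counting error and say nothing about the spread between barcodes or between mice.

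Immediate early genes are transcribed within minutes of a stimulus, without new protein synthesis, from promoters that signal-activated transcription factors already occupy. Fos and Fosb proteins pair with Jun and Junb to form AP-1, Egr1 is a zinc finger factor, Atf3 is a stress-induced bZIP factor, Ier2 is a small nuclear protein, and Dusp1 is a phosphatase that switches off MAP kinases. Hspa1a and Hspa1b encode the inducible HSP70 chaperone and are switched on by heat shock factor when proteins unfold. Both sets are known to be switched on in many cell types when solid tissue is digested warm. Here tumor pieces were digested with collagenase I and DNase I for 30 min at 37 °C and then dissociated by machine. No undissociated tissue was measured, so expression in the tumor and expression started by the digestion cannot be told apart.

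The promoters of Fos, Dusp1, Hspa1a and Hspa1b are shown because the levels of Fos and Dusp1 followed each other across the classes of cells and because the heat shock pair differ so little in this region. Each is the 250 bases before the start site from RefSeq, build GRCm38.p6, written 5′ to 3′ on the strand of the gene. They lie at chr12:85473640-85473889 on the plus strand for Fos and, on the minus strand, at chr17:26508473-26508722 for Dusp1, chr17:34972157-34972406 for Hspa1a and chr17:34959239-34959488 for Hspa1b. Capitals mark TGACG, the core of the cAMP response element, or the whole element TGACGTCA, in Fos and Dusp1, and GAANNTTC, a heat shock element, in Hspa1a and Hspa1b.
Fos: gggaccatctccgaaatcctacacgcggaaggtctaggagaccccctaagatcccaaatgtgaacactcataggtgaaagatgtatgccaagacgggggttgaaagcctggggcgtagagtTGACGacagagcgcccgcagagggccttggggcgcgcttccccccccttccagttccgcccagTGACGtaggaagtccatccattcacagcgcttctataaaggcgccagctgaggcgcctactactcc
Dusp1: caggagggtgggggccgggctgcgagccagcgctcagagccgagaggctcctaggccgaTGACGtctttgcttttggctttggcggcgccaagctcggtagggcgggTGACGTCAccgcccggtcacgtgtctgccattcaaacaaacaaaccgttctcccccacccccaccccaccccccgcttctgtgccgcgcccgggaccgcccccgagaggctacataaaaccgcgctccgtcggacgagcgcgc
Hspa1a: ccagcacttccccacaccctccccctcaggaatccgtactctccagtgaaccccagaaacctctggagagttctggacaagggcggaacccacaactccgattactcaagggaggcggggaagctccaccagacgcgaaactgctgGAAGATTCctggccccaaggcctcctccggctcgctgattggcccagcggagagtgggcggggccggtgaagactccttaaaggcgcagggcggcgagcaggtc
Hspa1b: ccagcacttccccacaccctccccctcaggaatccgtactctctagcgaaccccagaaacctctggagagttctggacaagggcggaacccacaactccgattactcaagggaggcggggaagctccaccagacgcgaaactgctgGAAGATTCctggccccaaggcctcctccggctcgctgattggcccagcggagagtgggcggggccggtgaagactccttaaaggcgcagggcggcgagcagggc

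A promoter was found for 8 of the 10 genes in the RefSeq table. On either strand, TGACG lay in the promoters of Fos (129 and 66 bases upstream), Fosb (60), Junb (106), Atf3 (7) and Dusp1 (191, 143 and 140), and it lies in 17.8% of the 32851 promoters of the table. The whole element TGACGTCA, which contains TGACG, lay in the promoter of Dusp1 alone among the 8, 143 bases upstream, against 1.55% of all promoters. GAANNTTC lay 104 bases upstream in Hspa1a and in Hspa1b and 128 bases upstream in Jun, against 6.69% of all promoters. The AP-1 element TGANTCA (6.75% of all promoters) and the CArG box (1.47%) lay in none of these windows, and TATAAA (12.4%) lay only in that of Fos, 33 bases upstream. CCAAT (33.8%) lay 67 bases upstream in Hspa1a and Hspa1b, 65 in Jun and 36 in Junb. The motifs were picked for their known roles, and a match shows letters, not a bound site.

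Hspa1a (17:34969190-34972156, GRCm38, minus strand) and Hspa1b (17:34956436-34959238, minus strand) are single-exon neighbours. Their promoters matched at 247 of 250 bases (98.8%) and their coding sequences at 1919 of 1929 aligned positions (99.5%). After the coding sequence only 54.6% of aligned positions matched. Of all stretches of 91 bases in the transcripts, 49.1% for Hspa1a and 52.0% for Hspa1b also occur in the other gene, but none of those in the last 500 bases do. How many reads of this 3′ kit came from the shared part was not measured, so each of the pair is uncertain to that extent and their sum is given beside them. Of the other genes, Fos (12:85473890-85477273, plus strand, 4 exons) and Fosb (7:19302696-19310051, minus strand, 4 exons) overlap no other annotated gene, and neither does Ier2 (8:84661331-84662852, minus strand, 1 exon). Jun (4:95049034-95052222, minus strand, 1 exon) overlaps the antisense gene Junos, and Junb (8:84974484-84978718, minus strand) overlaps Prdx2 on the other strand. Atf3 (1:191170296-191218039, minus strand, 4 exons) and Dusp1 (17:26505590-26562128, minus strand) span longer regions with other genes on them.

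The KPCA.FSTKO library held 7582 barcodes and 168214773 UMIs, and the KPCA.FSTKO_hFSTL3 library 4244 barcodes and 80391504 UMIs. The filters on mitochondrial share (under 20%) and gene number (201 to 7999) left 6777 and 4041 barcodes with a median of 17253 and 15071 UMIs. Barcodes were put into classes by summed marker genes and are called "-like" for that reason. The cancer-like class held 3873 and 252 barcodes, the macrophage-like class 874 and 147, and the stromal-like class 409 and 70. In the KPCA.FSTKO library 107 barcodes were neutrophil-like, 84 endothelial-like, 84 erythroid-like and 76 T/NK-like. The KPCA.FSTKO_hFSTL3 library held 13, 8 and 11 of the endothelial-like, erythroid-like and T/NK-like ones, and 0 neutrophil-like barcodes of 4041 by this gate, which allows a share of up to 0.0742% by the same gate. Classes by cluster put 6 barcodes of that library and 137 of the KPCA.FSTKO library in a neutrophil-like class. In the KPCA.FSTKO library the genes with the highest fold in the stromal-like class included the immunoglobulin genes Igha and Igkv1-135 and the keratin Krt1 beside stromal genes. The 2 libraries shared 12 barcode sequences.

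The KPCA.FSTKO_hFSTL3 library stood apart. In it 3049 barcodes (75.5%) carried cancer, macrophage, stromal and pancreatic acinar markers together, against 38 (0.561%) in the KPCA.FSTKO library, and they are called mixed barcodes. Their median marker levels per 10000 UMIs were 35.6 for cancer, 37.4 for macrophage, 21.5 for stromal and 101 for acinar markers, and their median mitochondrial share was 11.7%. Mixed barcodes were kept out of every class, and they are described on their own. Acinar markers were also higher in the named classes of that library. All 20 acinar markers had a UMI in the cancer-like, stromal-like and macrophage-like barcodes of the KPCA.FSTKO library, and their summed level was 0.338, 0.613 and 0.871 per 10000 UMIs there, against 4.93, 7.43 and 11.7 in the KPCA.FSTKO_hFSTL3 library. Fst itself stood at 5.05 CPM (UMIs of the gene per 1000000 UMIs of the class) in KPCA.FSTKO cancer-like barcodes (561 UMIs) and at 8.78 in KPCA.FSTKO_hFSTL3 ones (83 UMIs), against 112 and 157 in stromal-like barcodes. These 3′ tags need not lie in the deleted part of Fst, so they check no label.

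All 8 immediate early genes were found in every class of the KPCA.FSTKO library, and their summed level differed between classes by more than the counting error (levels are CPM, with no correction for gene length). The sum was 12516 (12122 to 12920) in neutrophil-like, 4736 (4687 to 4786) in stromal-like, 4415 (4378 to 4454) in macrophage-like, 2605 (2595 to 2614) in cancer-like, 1775 (1652 to 1905) in T/NK-like and 1319 (1241 to 1400) in endothelial-like barcodes. No neighbours in this order overlapped in their counting intervals. Erythroid-like barcodes stood lowest at 1202 (1110 to 1298), which overlapped the endothelial-like interval. In the median erythroid-like barcode most UMIs came from the erythroid markers, which leaves a smaller share of the CPM base for all other genes. How far this set the low sum was not tested. The erythroid-like sum rests on 638 UMIs, and the 5% of barcodes with most of them held 68.5%. Neutrophil-like barcodes held 0.926% of the immediate early UMIs of the library and 0.214% of all its UMIs. They were also shallow, with a median of 2672 UMIs against 27153 in cancer-like barcodes.

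**Figure D1:**
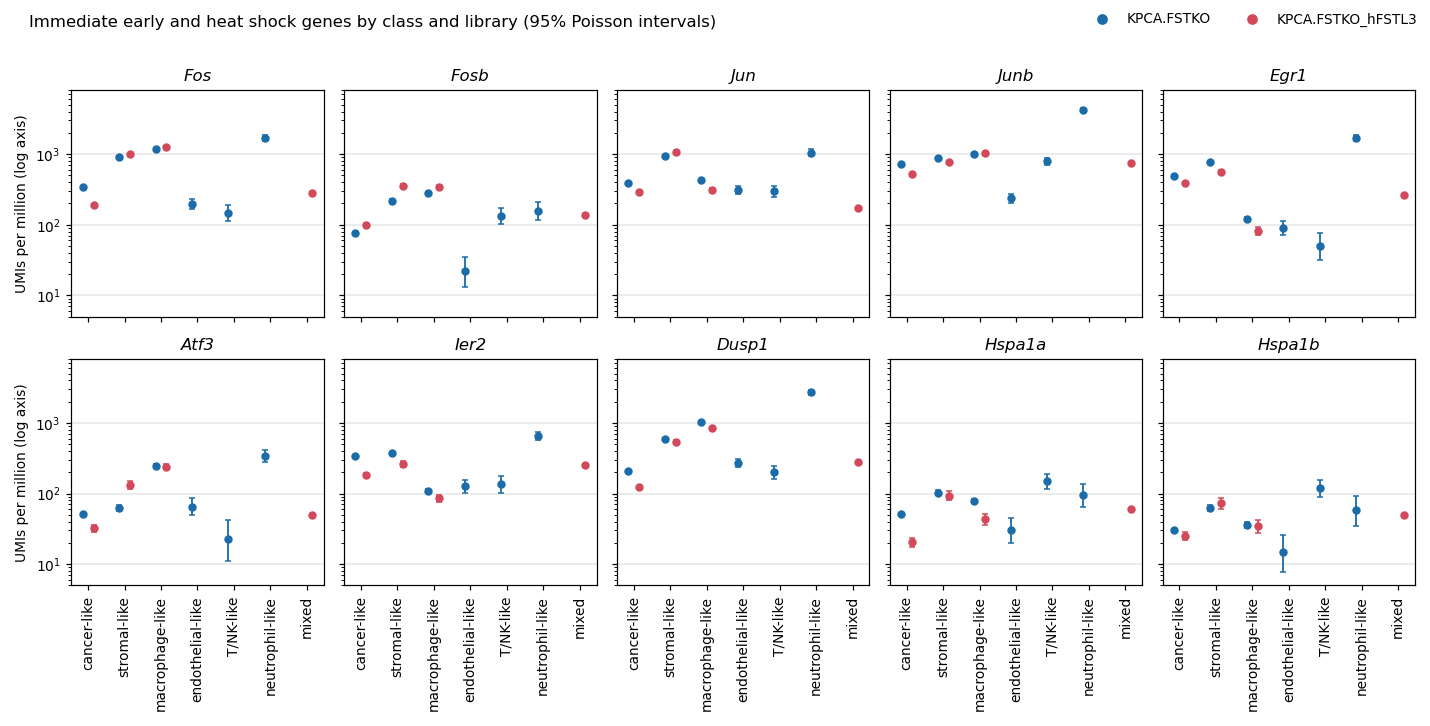
Levels of the 10 genes in each class of each library, in CPM on a log axis, with exact 95% Poisson intervals that cover counting error only. Neutrophil-like barcodes were measured in the KPCA.FSTKO library only, and stand at 4230 for Junb and 2698 for Dusp1.

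Among the AP-1 subunits, the order of classes differed from gene to gene. Fos in the KPCA.FSTKO library stood at 1689 (1546 to 1842) in neutrophil-like, 1196 (1176 to 1216) in macrophage-like, 899 (878 to 921) in stromal-like, 337 (334 to 341) in cancer-like, 195 (166 to 228) in endothelial-like and 147 (113 to 188) in T/NK-like barcodes. Only the last pair of neighbours overlapped in their intervals. Fosb, whose protein takes the same place in AP-1, had a different leader: it was highest in macrophage-like barcodes at 281 and stood at 217 in stromal-like, 158 in neutrophil-like, 133 in T/NK-like, 75.4 in cancer-like and 22.2 in endothelial-like barcodes. Jun was close in neutrophil-like (1048, 937 to 1170) and stromal-like barcodes (943), whose intervals overlapped, and lower in macrophage-like (424), cancer-like (386), endothelial-like (308) and T/NK-like barcodes (297). Junb stood at 4230 (4002 to 4468) in neutrophil-like barcodes, and its other levels ran from 1012 in macrophage-like through 872 in stromal-like, 789 in T/NK-like and 716 in cancer-like to 238 in endothelial-like barcodes.

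Egr1 and Ier2 were low in macrophage-like barcodes, where Fos, Fosb, Atf3 and Dusp1 were high. Egr1 in the KPCA.FSTKO library stood at 1696 in neutrophil-like, 781 in stromal-like, 493 in cancer-like, 120 in macrophage-like, 90.1 in endothelial-like and 50.6 in T/NK-like barcodes. Ier2 followed a like order, with 657 in neutrophil-like, 371 in stromal-like, 336 in cancer-like, 136 in T/NK-like, 126 in endothelial-like and 110 in macrophage-like barcodes. Atf3 was highest in the myeloid classes, at 339 (276 to 411) in neutrophil-like and 249 in macrophage-like barcodes, and lay between 23.0 and 65.4 in the other 4 classes. Dusp1, the brake on MAP kinases, stood at 2698 in neutrophil-like, 1022 in macrophage-like, 592 in stromal-like, 274 in endothelial-like, 211 in cancer-like and 200 in T/NK-like barcodes.

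The heat shock pair differed from the immediate early genes in its order of classes in the KPCA.FSTKO library, mainly in T/NK-like barcodes. Their summed level in the KPCA.FSTKO library was highest in T/NK-like barcodes at 269 (222 to 322), where the immediate early sum was among the lowest, and it stood at 165 (156 to 175) in stromal-like, 154 (114 to 205) in neutrophil-like, 114 (108 to 121) in macrophage-like, 80.8 (79.1 to 82.4) in cancer-like and 45.6 in endothelial-like barcodes. Hspa1a stood at 149, 103, 95.3, 78.5, 50.6 and 30.8 in these classes in the same order. Hspa1b stood at 120, 61.8, 59.2, 35.8, 30.2 and 14.8. Both genes had the same order of classes. The neutrophil-like value rests on 47 UMIs, and its interval overlapped the stromal-like one. The T/NK-like values rest on 117 UMIs in 76 barcodes, of which 64.5% had none, and the 5% of barcodes with most UMIs of the pair held 46.2% of them. Apart from T/NK-like barcodes, both sums had the same order but for the neutrophil-like and stromal-like classes. In the KPCA.FSTKO_hFSTL3 library both ran from stromal-like (4673 immediate early, 166 heat shock) through macrophage-like (4183 and 77.5) to cancer-like barcodes (1829 and 45.3).

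Set against cancer-like barcodes of the same library, 4 of the 10 genes were at least 2-fold higher in macrophage-like barcodes of KPCA.FSTKO tumors and 2 were at least 2-fold lower, the fold used throughout for genes with at least 100 UMIs over both classes. Over the 13567 genes with enough UMIs, 16.1% lay above that fold and 32.5% below its inverse. The log2 ratios of the higher genes were 1.83 for Fos, 1.90 for Fosb, 2.28 for Atf3 and 2.28 for Dusp1. Egr1 (-2.03) and Ier2 (-1.61) were the lower ones. Jun (0.14), Junb (0.50), Hspa1a (0.63) and Hspa1b (0.25) were within the fold, which Hspa1a passed as a mean over barcodes (1.02) and thinned to 1000 UMIs (1.04). The immediate early sum had a log2 ratio of 0.76 (0.75 to 0.77) and the heat shock sum one of 0.50 (0.42 to 0.58). The median over the 10 genes was 0.57, against -0.43 over all genes with enough UMIs. Scaling by TMM factors adds 0.28 to every log2 ratio of this comparison.

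The same split was present in the KPCA.FSTKO_hFSTL3 library, whose macrophage-like and cancer-like barcodes are other barcodes from other mice. There 5 of the 10 genes were at least 2-fold higher in macrophage-like barcodes and 2 lower, where 17.7% and 25.7% of 9287 genes were. The higher ones were Fos (2.72), Fosb (1.79), Atf3 (2.89), Dusp1 (2.80) and Hspa1a (1.08), and the lower ones Egr1 (-2.27) and Ier2 (-1.11). Fos stood at 1252 in macrophage-like and 190 in cancer-like barcodes of that library, and Dusp1 at 845 and 122. Egr1 ran the other way, at 81.5 and 393. In the 12 macrophage-like barcodes of that library with acinar markers under 5 per 10000 UMIs, Hspa1a had a log2 ratio of -0.83 (-3.13 to 0.75), from 3 UMIs. The Hspa1a ratio was also within the fold without the filters (0.67), with a stricter gate (0.78) and without the 5% of barcodes with most UMIs (0.56). That of Ier2 was within it by cluster (-0.99), as a mean over barcodes (-0.88), thinned to 1000 UMIs (-0.69) and with few acinar markers (-0.72). Junb, at 0.98, lay at the fold, and Hspa1b passed it as a mean over barcodes (1.09) and thinned (2.58, from few UMIs).

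Stromal-like barcodes were above cancer-like ones for all 10 genes in both libraries, where 5797 of 13418 and 3956 of 9004 genes were. Ier2 was the exception with classes taken by cluster (-0.04 in the KPCA.FSTKO library) and in barcodes with few acinar markers (-0.10 in the other), and Egr1 with mixed barcodes counted (-0.05). In the KPCA.FSTKO library 6 genes were at least 2-fold higher and none lower, where 15.0% and 17.3% of 13418 genes were. These were Fos (1.42), Fosb (1.52), Jun (1.29), Dusp1 (1.49), Hspa1a (1.03) and Hspa1b (1.03). Both heat shock genes were within the fold without the filters (0.93 and 0.97) and with mitochondrial share under 10% (0.99 and 0.96). In the KPCA.FSTKO_hFSTL3 library 7 genes were higher and none lower, where 12.6% and 14.6% of 9004 genes were. Atf3 (2.01) was the added one, beside Fos (2.39), Fosb (1.82), Jun (1.89), Dusp1 (2.14), Hspa1a (2.20) and Hspa1b (1.55), of which Hspa1b was within the fold with few acinar markers (0.84). The medians over the 10 genes were 1.03 and 1.86, against -0.15 and -0.13 over all genes with enough UMIs.

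Other early response genes and other chaperones were taken from lists and not for how they moved. Of 30 other early response genes, 11 were at least 2-fold higher and 8 lower in macrophage-like than in cancer-like barcodes of the KPCA.FSTKO library, where 16.1% and 32.5% of all genes were. Klf2, a zinc finger factor, stood at 306 against 46.2 CPM (log2 ratio 2.73), and Nr4a2, an orphan nuclear receptor, and Mcl1, an inhibitor of apoptosis, had ratios of 2.57 and 2.53. The lowest were Ccn2, a secreted matricellular protein, at 11.8 against 230 (-4.28), Fosl1, another Fos family subunit of AP-1 (-4.03), and Ccn1 (-3.54). Of 19 other chaperones with enough UMIs, none was higher and 7 were lower, and the latter share is near that of all genes, with ratios of -3.07 for Cryab, -2.99 for Hspb1 and -1.86 for Hspd1. In stromal-like against cancer-like barcodes 11 of the 30 early response genes were higher and 5 lower, and 4 of 20 chaperones were higher and 5 lower, where 15.0% and 17.3% of all genes were.

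Between genotypes, cancer-like barcodes of the KPCA.FSTKO_hFSTL3 library had lower levels of 9 of the 10 genes, with only Fosb higher. By CPM, Hspa1a alone was past the 2-fold line, at 20.4 against 50.6 CPM (193 and 5616 UMIs, log2 ratio -1.31, -1.52 to -1.10). Over the 13077 genes with enough UMIs, 3.07% lay above that fold and 7.49% below its inverse, so that 1 lower gene of 10 is near the share over all genes. Fos stood at 190 against 337 (-0.83), Ier2 at 184 against 336 (-0.87), Dusp1 at 122 against 211 (-0.80) and Atf3 at 32.5 against 51.4 (-0.66). Junb (519 against 716, -0.46), Jun (289 against 386, -0.42) and Egr1 (393 against 493, -0.33) differed less. Hspa1b stood at 24.9 against 30.2 (-0.28), and Fosb at 100 against 75.4 (0.41, 0.31 to 0.51). Other settings brought more genes past 2-fold. Fos was past it without the 5% of barcodes with most UMIs (-1.05). Ier2 was past it as a mean over barcodes (-1.01) and thinned to 1000 UMIs (-1.14). Hspa1b was past it thinned (-1.70), from few UMIs. In a separate thinning, 5 of the 252 KPCA.FSTKO_hFSTL3 barcodes had an Hspa1b UMI. The immediate early sum had a log2 ratio of -0.51 (-0.53 to -0.49) and the heat shock sum one of -0.84 (-0.98 to -0.70). The median over the 10 genes was -0.56, against -0.01 over all genes with enough UMIs. All 16 acinar markers with enough UMIs were at least 2-fold higher in the same comparison, with a median of 4.28. With mixed barcodes counted as cancer-like the heat shock sum had a ratio of 0.31, Hspa1a one of 0.10, Dusp1 one of 0.26 and Hspa1b one of 0.60, and the part of the mixed content in these differences was not tested.

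**Figure D2:**
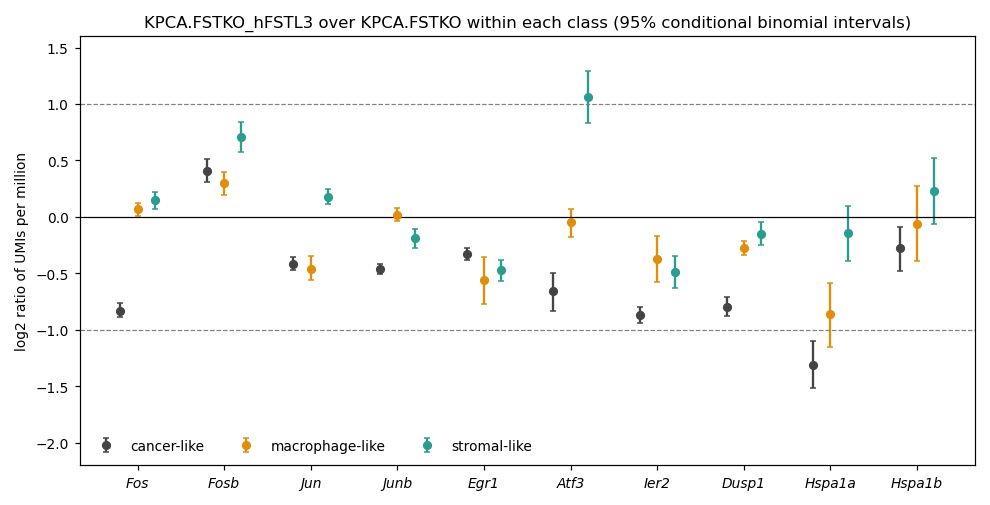
Log2 ratio of CPM, KPCA.FSTKO_hFSTL3 over KPCA.FSTKO, for each gene within the cancer-like, macrophage-like and stromal-like classes, with exact 95% conditional binomial intervals that cover counting error only. In cancer-like barcodes 9 of 10 points lie below 0, where 6462 of 13077 genes lay above 0. Stromal-like Atf3 (1.06, and 0.85 with TMM factors) is the highest point.

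By CPM, macrophage-like barcodes of the 2 libraries differed by less than 2-fold in all 10 genes, where 1.64% of 8845 genes were higher and 1.48% lower by that fold. Hspa1a stood at 43.1 against 78.5 CPM (-0.86, -1.15 to -0.59), Egr1 at 81.5 against 120 (-0.56), Jun at 309 against 424 (-0.46), Ier2 at 85.2 against 110 (-0.37) and Dusp1 at 845 against 1022 (-0.28). Fosb was at 345 against 281 (0.30). Fos (0.07), Junb (0.02, -0.04 to 0.08), Atf3 (-0.05, -0.18 to 0.07) and Hspa1b (-0.06, -0.39 to 0.27) lay near 0. TMM factors subtract 0.32 from each of these ratios, and Fos, Fosb and Junb then stand at -0.25, -0.02 and -0.30. Hspa1a was past 2-fold with TMM factors (-1.18), with a stricter gate (-1.03), without the 5% of barcodes with most UMIs of the genes (-1.31) and in the 12 barcodes with few acinar markers (-2.85), where Jun and Atf3 stood at -1.06 each. The sums had ratios of -0.08 for the immediate early and -0.56 for the heat shock genes. All 16 acinar markers with enough UMIs were at least 2-fold higher, with a median of 4.10, and the median over all genes was 0.10.

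Stromal-like barcodes showed 1 gene past 2-fold, Atf3, where 1.62% of 8571 genes were higher and 1.87% lower. Atf3 stood at 130 against 62.5 (1.06, 0.83 to 1.29), close to the fold. It was below 2-fold without the filters (0.90), by cluster (0.98), with TMM factors (0.85), as a mean over barcodes (0.97) and in barcodes with few acinar markers (0.84), and it was -0.24 with mixed barcodes counted. Ier2 was past the fold with few acinar markers (-1.01). Fosb was at 354 against 217 (0.71), Ier2 at 265 against 371 (-0.49) and Egr1 at 562 against 781 (-0.47). Fos (0.15), Jun (0.18), Junb (-0.19), Dusp1 (-0.15), Hspa1a (-0.14) and Hspa1b (0.23) lay closer to 0, and with TMM factors, which subtract 0.21 here, Fos and Jun stood at -0.06 and -0.03. The sums were level between libraries, with ratios of -0.02 (-0.05 to 0.01) and 0.01 (-0.17 to 0.20). These values rest on 70 barcodes of the KPCA.FSTKO_hFSTL3 library. By CPM, Fosb was higher and Egr1, Ier2, Dusp1 and Hspa1a lower in the KPCA.FSTKO_hFSTL3 library in all 3 classes. The stromal-like interval of Hspa1a held 0 (-0.39 to 0.10). Exceptions were macrophage-like Fosb under TMM factors, macrophage-like Ier2 (0.11) in the 12 barcodes with few acinar markers and stromal-like Dusp1 by cluster (0.16). Counting mixed barcodes in the class turned Fosb in macrophage-like (-0.91) and stromal-like barcodes (-0.56). It also turned Egr1 (1.06) and Ier2 (1.17) in macrophage-like and Dusp1 (0.26) and Hspa1a (0.10) in cancer-like barcodes. The share of all genes with the same direction in all 3 classes was not computed.

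Few of the wider lists were past the fold between libraries. In cancer-like barcodes, where 3.07% of all genes were higher and 7.49% lower, 2 of 30 other early response genes were lower and none higher: Ier3, an inhibitor of apoptosis, at 349 against 804 CPM (-1.20), and Btg2, an antiproliferative gene, at 59.3 against 123 (-1.05). Others of the list were higher within the fold, such as Ccn1 at 163 against 86.3 (0.92) and Myc (0.85), and the median was 0.12. Of 19 other chaperones Cryab, a small heat shock protein, was higher at 80.5 against 34.3 (1.23) and none was lower, with a median of 0.26. Dnajb1, the HSP40 partner of HSP70, had a ratio of -0.53 and the heat shock factor Hsf1 one of 0.68. In macrophage-like barcodes, where all genes gave 1.64% and 1.48%, none of 27 early response genes was past the fold, and of 18 chaperones Hspb1 was lower at 10.5 against 41.6 (-1.98). In stromal-like barcodes, where all genes gave 1.62% and 1.87%, Ccn2 was higher at 301 against 111 (1.44), Fosl1 (-1.25) and Ier3 (386 against 856, -1.15) were lower, and none of 19 chaperones was past the fold.

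Within a class the levels varied widely from barcode to barcode. The immediate early sum per 10000 UMIs of a barcode had a median of 18.2 in cancer-like barcodes of the KPCA.FSTKO library, with a range from 2.38 to 70.0 between the 5th and 95th percentiles. It was 39.8 (4.77 to 107) in stromal-like, 40.1 (7.86 to 100) in macrophage-like and 117 (31.6 to 237) in neutrophil-like barcodes. In the KPCA.FSTKO_hFSTL3 library the median was 11.2 (0.755 to 46.6) in cancer-like, 36.2 in stromal-like and 39.5 in macrophage-like barcodes. Heat shock UMIs were concentrated in few barcodes. In the KPCA.FSTKO library the pair had no UMI in 55.9% of cancer-like, 36.2% of stromal-like and 65.2% of macrophage-like barcodes, and the 5% of barcodes with most of their UMIs held 44.5%, 29.1% and 52.8% of them. The highest macrophage-like barcode carried 82 UMIs of the pair.

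**Figure D3:**
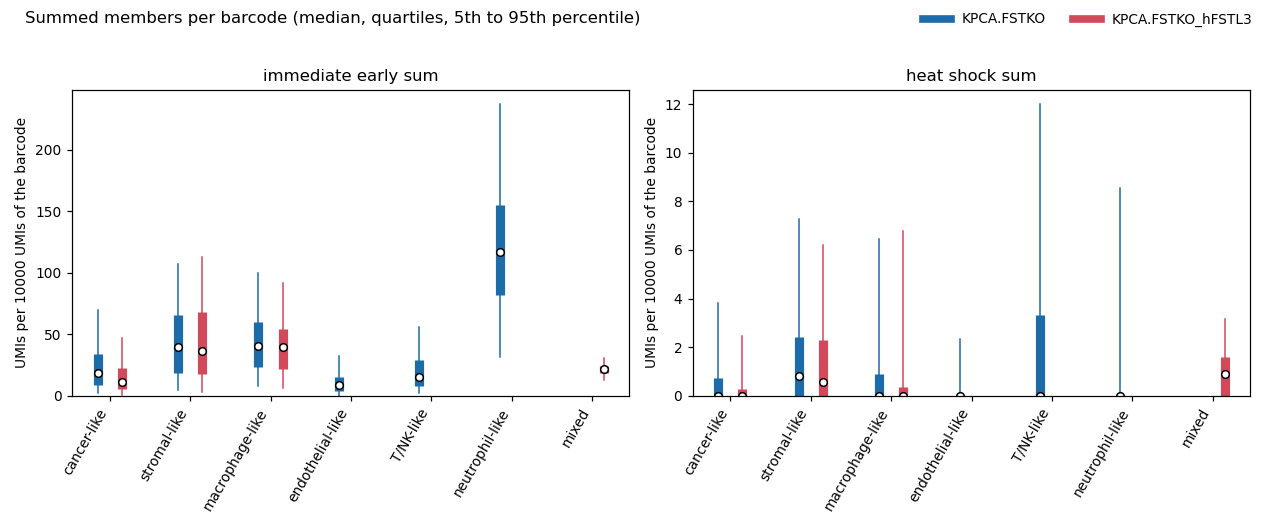
Summed immediate early genes and summed heat shock genes per barcode, in UMIs per 10000 UMIs of the barcode, as median, quartiles and 5th to 95th percentile for each class and library. The immediate early median is 117 in neutrophil-like and 18.2 in cancer-like barcodes of the KPCA.FSTKO library, and 21.3 in mixed barcodes, whose range is narrow.

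Mixed barcodes of the KPCA.FSTKO_hFSTL3 library carried these genes at intermediate levels. They held 72.2% of the library's immediate early UMIs and 82.7% of its heat shock UMIs, against 75.3% of all its UMIs. Fos stood at 278 CPM in them, between 190 in cancer-like and 1252 in macrophage-like barcodes. The same held for Junb (737), Atf3 (49.9), Dusp1 (275), Fosb (139), Egr1 (262), Ier2 (256), Hspa1a (60.5) and Hspa1b (49.5), which lay between the lowest and the highest of the cancer-like, stromal-like and macrophage-like levels of that library. Jun did not, at 170 against 289 in cancer-like, 309 in macrophage-like and 1069 in stromal-like barcodes. Against cancer-like barcodes 2 of the 10 genes were at least 2-fold higher, Hspa1a (60.5 against 20.4, 1.57) and Dusp1 (1.18), and none was lower, where 11.1% and 12.3% of 12511 genes were. Their heat shock sum was 110 against 45.3 in cancer-like and 166 in stromal-like barcodes. Leaving mixed barcodes out moves the heat shock sum of the whole library from 100 to 69.9 and the immediate early sum from 2258 to 2538, against 90.2 and 2893 in the KPCA.FSTKO library.

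The mixed barcodes were more even than the named classes. With each barcode thinned to 5000 UMIs, which left out 555 shallower mixed barcodes, the variance of a gene's UMIs over its mean ran from 0.972 for Ier2 to 1.07 for Junb over 2494 mixed barcodes, where random sampling of 1 common pool of RNA gives a value near 1. In cancer-like barcodes of the KPCA.FSTKO library it ran from 1.62 for Hspa1b to 5.81 for Fos (3517 barcodes), in macrophage-like ones from 1.56 to 6.16 (801) and in stromal-like ones from 1.51 to 5.77 (386). Named classes of the KPCA.FSTKO_hFSTL3 library ran from 1.15 to 3.66 in cancer-like (218), 1.13 to 6.16 in macrophage-like (142) and 3.01 to 6.48 in stromal-like barcodes (67). Fos had the highest variance over mean of the 10 genes in every one of these 6 classes. The genes differ in mean level and this value depends on the mean, so it does not rank the genes by unevenness. The 5% of mixed barcodes with most heat shock UMIs held 17.7% of them, against 46.3% in cancer-like barcodes of that library.

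**Figure D4:**
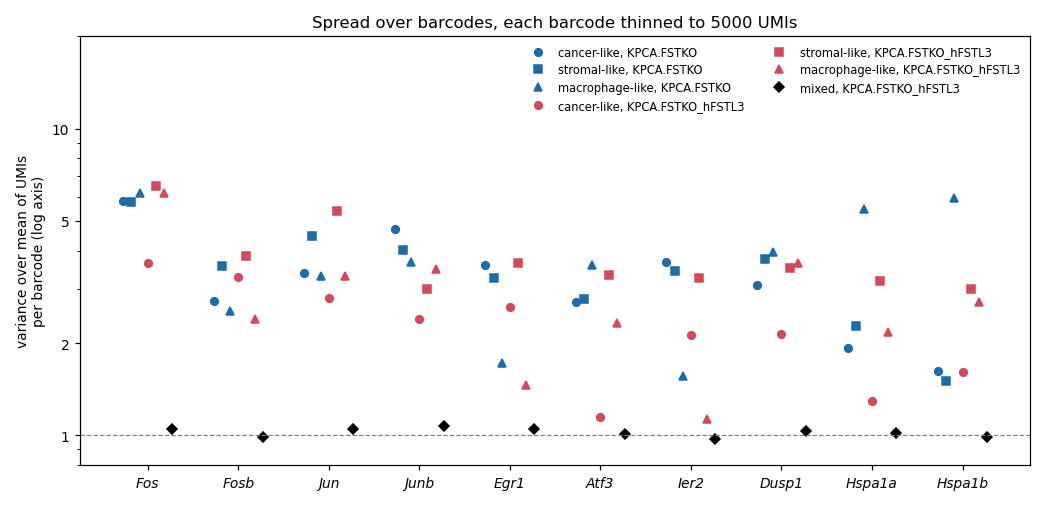
Variance over mean of the UMIs of each gene over barcodes thinned to 5000 UMIs, on a log axis, by class and library, with a dashed line at 1. Mixed barcodes lie between 0.972 and 1.07 for all 10 genes, and every named class lies above them.

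Pairs of the genes varied together from barcode to barcode to different degrees in the named classes, and the mixed ones gave values near 0. These correlations are descriptions over barcodes that share a library, computed on log2(UMIs + 1) after thinning, for pairs of genes with enough UMIs. In cancer-like barcodes of the KPCA.FSTKO library all 36 pairs were above 0, with a median Pearson r of 0.27 and the highest for Junb with Ier2 (0.49). In macrophage-like barcodes the median was 0.12 over 45 pairs, of which 36 were above 0. The values there ran from -0.13 for Dusp1 with Hspa1b to 0.48 for Fos with Dusp1. In stromal-like barcodes the median was 0.18 over 45 pairs, with the highest for Junb with Egr1 (0.54). Hspa1b had too few UMIs in the cancer-like class and is in none of its pairs. The cancer-like median thus covers a smaller set of pairs and cannot be set against the macrophage-like and stromal-like ones. In the KPCA.FSTKO_hFSTL3 library Fos with Jun reached 0.68 in stromal-like and Hspa1a with Hspa1b 0.54 in macrophage-like barcodes, where the median was 0.11, 34 of 45 pairs were above 0 and Junb with Hspa1b stood at -0.29. Over the mixed barcodes the 45 pairs ran from -0.06 to 0.05 with a median of 0.01.

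The immediate early sum moved in no single direction with mitochondrial share, a usual sign of damaged cells, across the classes described here. Barcodes of each class were ordered by mitochondrial share and divided into 3 bins of equal size. In cancer-like barcodes of the KPCA.FSTKO library the immediate early sum was 2377, 2781 and 2624 CPM from the lowest to the highest bin, and the heat shock sum 86.0, 85.6 and 67.1. Fos, at 267, 348 and 407, and Fosb, at 63.2, 74.7 and 91.5, were highest in the bin of highest share, while Hspa1a, at 56.2, 54.1 and 38.6, was lowest there. In macrophage-like barcodes of that library both sums were lower in the bins of higher share, at 4583, 4489 and 4126 for the immediate early and 166, 91.1 and 88.6 for the heat shock genes. Stromal-like barcodes had 4991, 4918 and 4079 for the immediate early sum, and their heat shock sum was highest in the top bin at 227, against 149 and 141. Bins by total UMIs showed the heat shock sum of KPCA.FSTKO macrophage-like barcodes lower in deeper barcodes, at 179, 124 and 87.5, and that of cancer-like barcodes higher in deeper ones, at 57.0, 81.9 and 84.8. In mixed barcodes neither ordering moved the sums much, with 2233, 2173 and 2097 for the immediate early genes by mitochondrial share and 2154, 2163 and 2170 by depth.

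**Figure D5:**
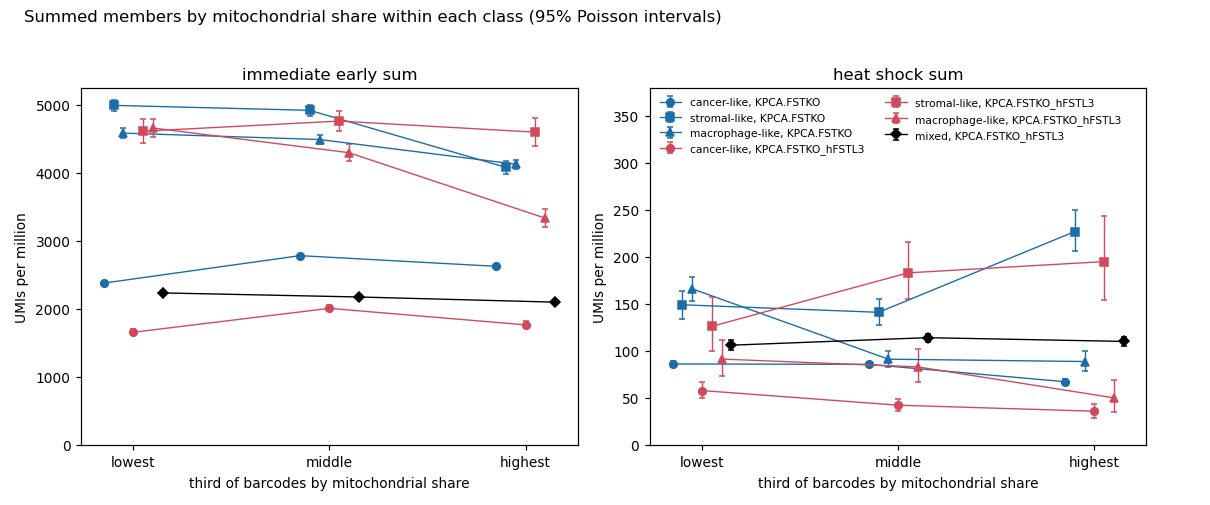
Immediate early and heat shock sums in CPM for barcodes divided into 3 bins by mitochondrial share within each class, with exact 95% Poisson intervals. Macrophage-like barcodes of the KPCA.FSTKO library go from 166 to 88.6 for the heat shock sum, and mixed barcodes stay near level.

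The sums were also taken in barcodes outside the mitochondrial filter. Those with a mitochondrial share of 20% or more numbered 550 in the KPCA.FSTKO and 97 in the KPCA.FSTKO_hFSTL3 library. Their immediate early sums were 1872 and 824 CPM, against 2893 and 2258 in the barcodes that passed. Their heat shock sums were 87.5 (76.0 to 100) and 54.1 (32.1 to 85.5) against 90.2 and 100, and the interval of the first holds the value of the barcodes that passed. Fosb was an exception in the KPCA.FSTKO library, at 190 against 102, as was Hspa1b at 42.1 against 33.5. The median mitochondrial share was 3.65% and 3.51% in cancer-like barcodes of the 2 libraries and 3.92% and 3.55% in macrophage-like ones.

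The genes whose levels ran most like those of Fos were sought over the 12 units of class and library with at least 20 barcodes, mixed barcodes included, among 13804 genes with at least 200 UMIs. The 5 with the highest Pearson r of log2(CPM + 1) were Kcnn3 (0.98), Oas2 (0.95), Zfp36 (0.94), Tgm1 (0.94) and C1rl (0.93). Zfp36, an early response gene that encodes an mRNA-destabilizing protein, had 58982 UMIs, while Kcnn3 had 298. Dusp1 stood at 0.93, with 5 genes above it, Fosb at 0.76, Atf3 at 0.73, Junb at 0.71 and Jun at 0.68, and Egr1 (0.40) and Ier2 (0.39) were far from Fos. The pattern of Hspa1a was closest to Hspa1b and H2-T22, at 0.97 each, followed by Prorsd1, Borcs6, Zbtb8os and Auh at 0.96. Among the 12 units were the 38 mixed barcodes of the KPCA.FSTKO library. They held 25828 UMIs in all and 0 UMIs of Hspa1a and of Hspa1b. How far this shallow unit set the r values was not tested. The units share libraries and classes, and the r values are descriptions.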

How the data were processed

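Single-cell RNA libraries were made with a 10x Genomics 3′ kit. The authors deposited raw UMI counts per gene and barcode, not normalized and with the filters of the study's methods not applied. Cell Ranger is given as version 3.1.0 in the methods and as 7.2.0 in the matrix header, with the mm10 reference. Barcodes with a mitochondrial share under 20% and 201 to 7999 genes were kept. The UMIs of a gene in a class of a library were scaled to 1000000 UMIs of that class (CPM).

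Classes came from summed marker levels per 10000 UMIs, with at least 1000 UMIs and at least 3 markers of the class found (2 for T/NK), and with thresholds written after marker levels were seen. The lower limit was 20 for cancer, 50 for macrophage, 60 for stromal, 50 for neutrophil, 20 for endothelial, 10 for T/NK and 500 for erythroid markers. Acinar markers were limited in every class (under 50), and markers of the other main classes in most. The neutrophil gate limited only cancer markers, and the erythroid gate limited no other class. Neutrophil-like barcodes of the KPCA.FSTKO library had a median of 66.9 macrophage markers per 10000 UMIs, so they were not separated from macrophage markers. In all 1232 and 491 barcodes had no class. Near the limit (within 25%) lay 161 and 12 cancer-like, 31 and 2 macrophage-like and 17 and 3 stromal-like barcodes. Mixed barcodes had cancer, macrophage and stromal markers of at least 10 each and acinar markers of at least 30. Classes by Leiden clusters (Scanpy 1.11.5) matched for 98.0% and 97.9% of gated barcodes. Doublets were kept. Scrublet marked 90 barcodes (1.33%) and 1 (0.0247%), and the share in the KPCA.FSTKO_hFSTL3 library is too low for the caller to have worked there.

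A ratio was called past the fold at 2-fold with at least 100 UMIs over both sides. Intervals were exact Poisson or conditional binomial at 95% (SciPy 1.17.1). TMM factors came from edgeR 4.0.16. The interval and call code was tested on simulated data. The genes, lists and classes were chosen with earlier results of these data known. Named genes were all 10 genes, the extremes of the other lists and the 5 nearest patterns. B, dendritic and mesothelial marker lists had medians of 1.79 per 10000 UMIs or less in the 3 main classes.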

Additional observations from a re-analysis of the deposited data

Results flagged for a closer look

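Atf3 differed between classes in the direction of its library ratio. With KPCA.FSTKO as the denominator, its log2 ratio was 1.06 in stromal-like barcodes (130 against 62.5 CPM) and -0.66 in cancer-like barcodes (32.5 against 51.4 CPM). The stromal-like value was 0.90 without the filters, 0.98 by cluster, 0.85 with TMM factors, 0.97 as a mean over barcodes and 0.84 with few acinar markers, each below 2-fold, and -0.24 with mixed barcodes counted. Each direction rests on 1 library per genotype, and the difference was not tested.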

How the results depend on the processing

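No paired analysis was possible because each genotype has 1 library. The values below are log2 ratios. The immediate early sum of macrophage-like over cancer-like barcodes in the KPCA.FSTKO library was 0.76. It was 0.85 with a stricter gate, 0.66 with classes by cluster, 1.04 with TMM factors, 0.89 without the 5% of barcodes with most UMIs of the genes, 0.83 as a mean over barcodes and 0.85 with barcodes thinned to 1000 UMIs. The heat shock sum of the same comparison was 0.50, and 0.72 by cluster, 0.78 with TMM, 0.23 without the top 5%, 0.89 as a mean and 0.97 thinned.

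Between libraries in cancer-like barcodes the immediate early sum was -0.51. It was -0.45 without the filters, -0.59 with TMM, -0.62 as a mean, -0.64 thinned, -0.30 with mixed barcodes counted and -0.44 with acinar markers under 5 per 10000 UMIs. The heat shock sum was -0.84, and -0.58 without the filters, -1.52 thinned (from few UMIs) and 0.31 with mixed barcodes counted. In macrophage-like barcodes the immediate early sum was -0.08, and -0.04 by cluster, -0.40 with TMM, -0.96 with mixed barcodes counted and 0.05 with few acinar markers. The heat shock sum was -0.56, and -0.87 with the stricter gate, -0.88 with TMM, -0.80 without the top 5%, -0.07 with mixed barcodes counted and -3.39 with few acinar markers, from 12 barcodes of the KPCA.FSTKO_hFSTL3 library. Genes past the fold numbered 1, 0 and 1 in cancer-like, macrophage-like and stromal-like barcodes. At a ratio of 1.5 they numbered 5, 1 and 2, and at a ratio of 3 they numbered 0 in all 3.

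Of values past the fold, 4 changed sign. With mixed barcodes counted, Hspa1a between libraries was 0.10 in cancer-like and Atf3 -0.24 in stromal-like barcodes, and Ier2 of macrophage-like over cancer-like KPCA.FSTKO_hFSTL3 barcodes was 0.01. With few acinar markers Hspa1a was -0.83 in the latter comparison. Over all alternatives, 31 of 359 values of single genes between libraries and 9 of 479 between classes changed sign. Of values past the fold, 7 of 24 between libraries and 27 of 312 between classes were no longer past it, and 22 and 9 were newly past it. Counting mixed barcodes gave 14 of those 27 losses and 11 of those 22 gains. The cause was not tested. The settings with mixed barcodes counted and with few acinar markers were added after the data were seen.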
